A study of Mus musculus with 14 samples.

Results

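The amino acid and neurotransmitter solute carriers were taken as every gene of the count table whose symbol belongs to the families Slc1a, Slc3a, Slc6a, Slc7a, Slc38a or Slc43a followed by a number. This rule gave 56 genes of 32926 in the table. The study sequenced RNA of mouse small cell lung cancer (SCLC) cells grown in culture, as 14 libraries of 6 groups. Non-NE cells, which lack the neuroendocrine programme of this tumour, and NE cells, which carry it, have 3 libraries each. The other 8 libraries are NE cells of a course of YAP5SA, a mutant YAP coactivator freed from inhibition by the Hippo kinases, labelled 0, 3, 7 and 21 days (2 libraries each), with day 0 as the baseline. The comparisons ask how transporter expression differs between Non-NE and NE cells and how it moves over the days of YAP5SA.

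All groups share one tumour background, lung tumours of adult mice of mixed strain with the alleles CGRPCreER/+, Rbf/f, P53f/f and Ptenf/f. The mice were injected with TM, with an interval of 2 months given, and the cells were grown in Hites medium. Cre recombinase is driven here from the gene of the neuroendocrine peptide CGRP, so the tumours start in the cells that express it. The cells of days 3, 7 and 21 and of day 0 replicate 2 also carry Rosa26rtTA and Tet-onYAP5SA, while for day 0 replicate 1 the labels list neither. The inducing agent is not given in the labels. The genotype field of several libraries has another number in place of P53, while the source text of every library has P53. Nothing in the labels says whether replicates are separate tumours, lines or cultures, so p-values measure the spread between these libraries, which may be technical.

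Solute carriers move amino acids and transmitters through the plasma membrane or the membranes of lysosomes and synaptic vesicles. The SLC1 carriers take up glutamate and aspartate or exchange small neutral amino acids. SLC7 light chains work as exchangers when bound to an SLC3 heavy chain, while the cationic members of SLC7 carry arginine and lysine alone. SLC6 carriers use sodium and chloride to take up GABA, glycine, monoamines, taurine, creatine or amino acids, SLC38 carriers take up glutamine and other neutral amino acids with sodium, and SLC43 carriers let neutral amino acids through by facilitated diffusion. In tumour cells the pathway feeds protein synthesis, mTORC1 signalling and glutathione synthesis, and in neuroendocrine cells it overlaps with the handling of transmitters.

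Windows around the transcription start, from 250 bases before to 50 bases after it, were found for 39 of the 56 members (60 windows, RefSeq, build GRCm38.p6). They were searched on both strands for 4 motifs. The C/EBP-ATF response element that ATF4 binds when amino acids are short (TGATGNAA) was in 6.67% of the members' windows and 3.97% of all 32851 windows. The core of the antioxidant response element (TGACNNNGC) was in 16.7% of the members' windows and 12.4% of all. The TEAD motif, through which YAP reaches DNA (GGAATG), was in 16.7% and 14.7%, and the E-box (CACGTG) in 13.3% and 7.15%. A match is a description of the letters and not a site.
The first 3 sequences are shown because Slc7a11, Slc1a4 and Slc7a7 are the members with a C/EBP-ATF response element. Slc6a14 and Slc1a1 are shown because they came on most strongly over the days of YAP5SA, and their windows hold none of the 4 motifs. Slc6a13, low at day 0 and higher later, is shown because one of its windows holds both a TEAD motif and an antioxidant core. They lie 91 and 82 bases before the start, without overlap. It is a chosen example, and Slc7a7, also low at day 0 and higher later, has TEAD motifs in windows not shown. Capitals mark the motifs, each sequence reads 5′ to 3′ along the gene, and Slc7a11 carries its pair 66 and 47 bases before the start.
Slc7a11 (chr3:50443564-50443863, minus strand): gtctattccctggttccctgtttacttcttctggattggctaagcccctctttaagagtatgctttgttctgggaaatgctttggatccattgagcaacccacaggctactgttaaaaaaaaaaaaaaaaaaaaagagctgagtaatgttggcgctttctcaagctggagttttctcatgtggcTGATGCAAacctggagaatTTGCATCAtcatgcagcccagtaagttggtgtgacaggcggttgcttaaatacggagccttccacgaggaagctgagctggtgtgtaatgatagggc
Slc1a4 (chr11:20332664-20332963, minus strand): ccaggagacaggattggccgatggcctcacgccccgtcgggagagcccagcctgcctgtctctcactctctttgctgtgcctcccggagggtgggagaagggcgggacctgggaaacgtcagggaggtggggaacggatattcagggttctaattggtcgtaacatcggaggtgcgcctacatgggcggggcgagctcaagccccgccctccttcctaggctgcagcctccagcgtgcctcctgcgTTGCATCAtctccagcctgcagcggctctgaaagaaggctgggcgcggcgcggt
Slc7a7 (chr14:54417895-54418194, minus strand): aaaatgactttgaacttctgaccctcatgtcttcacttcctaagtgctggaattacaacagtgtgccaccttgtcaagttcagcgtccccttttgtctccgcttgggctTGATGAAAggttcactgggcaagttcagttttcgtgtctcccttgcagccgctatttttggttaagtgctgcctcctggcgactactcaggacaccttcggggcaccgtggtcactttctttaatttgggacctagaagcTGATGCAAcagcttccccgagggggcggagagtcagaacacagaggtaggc
Slc6a14 (chrX:21714650-21714949, plus strand): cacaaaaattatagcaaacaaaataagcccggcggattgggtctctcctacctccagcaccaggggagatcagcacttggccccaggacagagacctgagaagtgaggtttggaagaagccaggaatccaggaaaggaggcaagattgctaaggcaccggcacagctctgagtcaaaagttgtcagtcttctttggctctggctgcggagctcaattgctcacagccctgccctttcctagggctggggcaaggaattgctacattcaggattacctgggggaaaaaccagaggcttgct
Slc1a1 (chr19:28834885-28835184, plus strand): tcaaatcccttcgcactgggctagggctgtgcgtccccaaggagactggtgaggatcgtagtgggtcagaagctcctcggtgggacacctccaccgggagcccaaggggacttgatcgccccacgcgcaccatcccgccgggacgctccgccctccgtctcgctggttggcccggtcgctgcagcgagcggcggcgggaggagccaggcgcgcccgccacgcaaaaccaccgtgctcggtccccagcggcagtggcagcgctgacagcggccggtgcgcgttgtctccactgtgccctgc
Slc6a13 (chr6:121300038-121300337, plus strand): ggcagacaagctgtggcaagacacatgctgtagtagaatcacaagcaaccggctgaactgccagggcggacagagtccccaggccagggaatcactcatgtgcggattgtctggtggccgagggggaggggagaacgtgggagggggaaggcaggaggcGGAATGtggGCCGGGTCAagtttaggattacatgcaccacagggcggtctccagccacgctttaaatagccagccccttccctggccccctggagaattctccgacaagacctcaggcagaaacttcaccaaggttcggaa

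The libraries held 6730816 to 10659524 counts over genes. Levels are CPM, read counts scaled to library size with TMM factors over all 14 libraries, and for a group at 0 the limit used is 3 counts in the group. NE replicate 2 never exceeded day 0 replicate 1 in the counts of any gene and behaved as a random 85.7% share of it, so NE and day 0 are not independent, and results are also given without either library. Yap1 stood at 135 to 257 CPM in Non-NE libraries and 8.2 to 19.2 CPM in NE libraries. It stood at 7.13 to 7.87, 1060 to 1230, 734 to 793 and 207 to 219 CPM at days 0, 3, 7 and 21, transgene and endogenous transcripts together. The 8 neuroendocrine markers summed to 58.8 to 418 CPM in Non-NE and 2960 to 4600 CPM in NE libraries, with Calca, the gene behind CGRP, at 0 in both. Of this sum Ncam1, a cell adhesion molecule, took 57.7 to 411 CPM in Non-NE and 12.6 to 60.8 CPM in NE libraries, against the direction of the sum. The neuroendocrine sum was 1100 to 1120 CPM at day 21 and 4610 to 4800 CPM at day 0. The 8 fibroblast markers summed to 1810 to 8730 CPM in Non-NE libraries, with Thy1 at 0, and to 1.74 to 7.11 CPM in NE libraries. They summed to 58.9 to 67.4 CPM at day 21 and 6.02 to 6.56 CPM at day 0. Most of the day 21 sum was Thy1 (22.9 to 29.3 CPM), Acta2 (16.2 to 19.7 CPM) and Pdgfrb (14.7 to 17.5 CPM). Col3a1, Col6a3, Lum and Dcn each stayed at or under 0.286 CPM in both day 21 libraries. The 6 immune markers summed to 112 to 135 CPM at day 21 and 2.04 to 2.62 CPM at day 0, with Ptprc at 0 on both days and Csf1r at 103 to 126 CPM at day 21. The part of such cells or programmes in the results was not tested, and in bulk RNA fewer expressing cells cannot be told apart from less RNA per cell.

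Of the 56 members, 31 reached a group mean of 5 CPM in some group and 30 of these are named below with their values. The other 25 stayed below it, 10 of them with fewer than 10 counts in all 14 libraries, and Slc7a12 was at 0 in every library. The members summed to 3456 ± 867 CPM in Non-NE libraries and 2213 ± 187 CPM in NE libraries (SD, n = 3 each). At days 0, 3, 7 and 21 of YAP5SA they summed to 2366 ± 14.6, 2376 ± 24.1, 2820 ± 0.0373 and 3058 ± 56.6 CPM (SD, n = 2 each). The lowest Non-NE sum, 2795 CPM, lay above the highest NE sum, 2354 CPM, and the sums of days 7 and 21 lay above those of days 0 and 3. The gap between Non-NE and NE rests on the TMM factors (0.8561 to 0.899 in Non-NE and 1.082 to 1.09 in NE libraries). With library totals the sums of these groups overlap. Overlap of CPM between groups, as stated below for single members, uses the TMM scaling too.

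**Figure D1:**
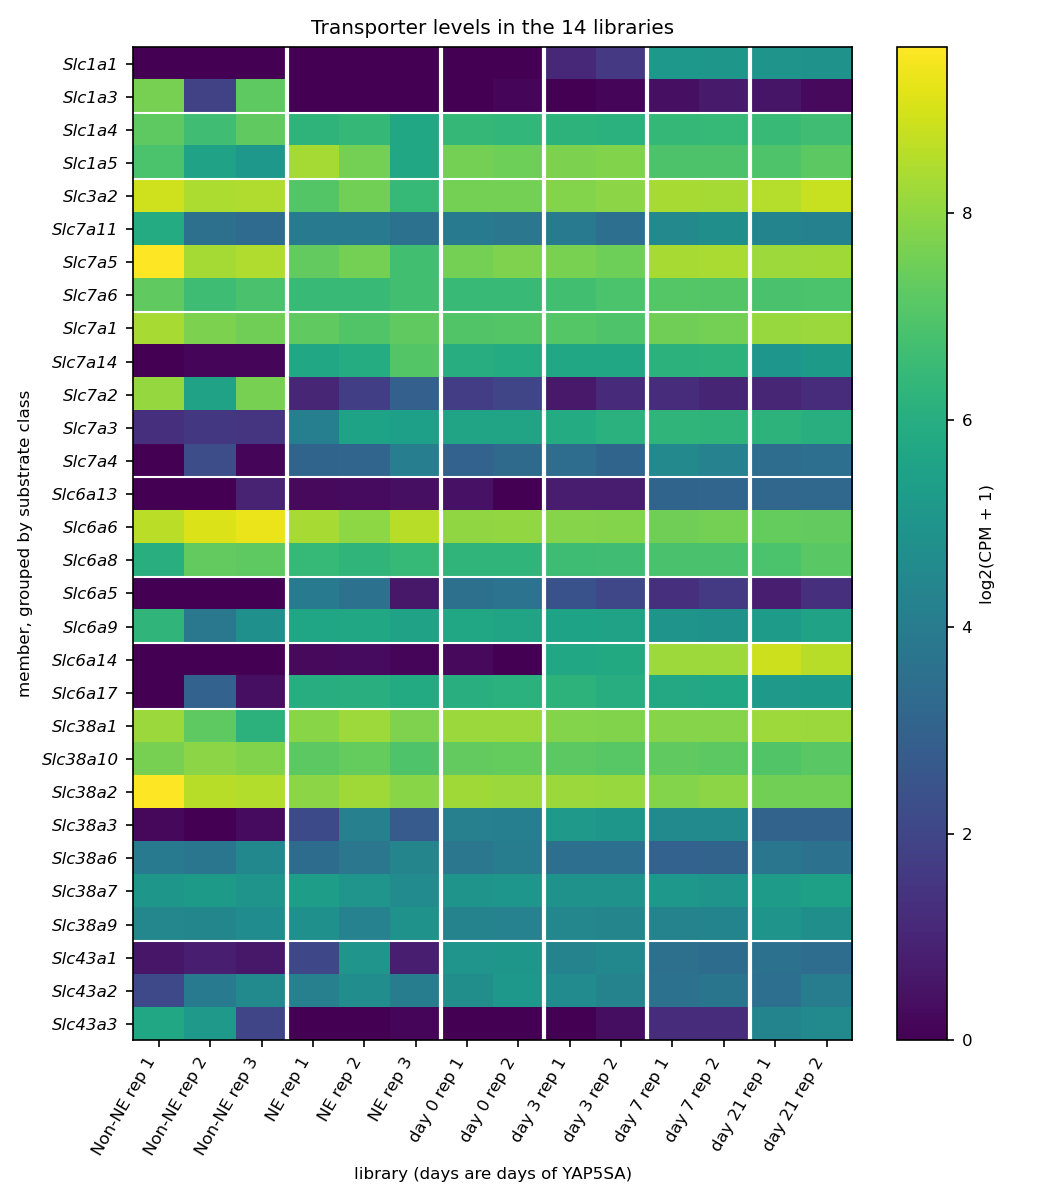
Level of each of the 30 named members in each of the 14 libraries, as log2(CPM + 1), with members in rows grouped by substrate class and libraries in columns. Slc6a14 is at or near 0 in the Non-NE, NE and day 0 libraries and reaches 384.5 to 474 CPM at day 21, while Slc7a14 is at 0 to 0.122 CPM in Non-NE libraries and at 32.4 CPM or more in all others.

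Genes were called at an adjusted p under 0.05 in edgeR's quasi-likelihood test with Benjamini-Hochberg adjustment over all genes tested. Between Non-NE and NE cells 27 members passed the filter on low counts, of which 8 were higher in Non-NE and 5 lower, beside 20% and 22.8% of all genes tested. Without NE replicate 2 these counts were 9 and 4. The number of lower members was 8 without NE replicate 3, 9 without Non-NE replicate 1 and 8 without Non-NE replicate 2. The median log2 difference was 0.32 over the tested members and -0.0199 over all genes. A member near 0 in one group passed the filter only where it was high in the other, so the counts over tested members are not a count over all 56. Scaling by library totals instead of TMM moved the median of all genes to -0.275 and the share of higher genes among all calls to 33.9% from 46.7%, and gave 6 higher and 5 lower members.

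Over the days of YAP5SA 35 members were tested. At day 3 against day 0, 9 were higher and 11 lower, beside 26.2% and 22.4% of all genes tested. At day 7 against day 0, 18 were higher and 13 lower, beside 37.2% and 33.8%, and at day 21 against day 0, 18 were higher and 14 lower, beside 37.7% and 34%. At day 7 against day 3, 17 were higher and 11 lower, beside 29.5% and 26.1%, and at day 21 against day 7, 12 were higher and 9 lower, beside 26.1% and 24.2%. The median log2 change of the tested members was -0.0536 at day 3, 0.28 at day 7 and 0.35 at day 21, beside 0.00931, 0.0302 and 0.0232 over all genes. Without day 0 replicate 1, the library that shares reads with NE replicate 2, the counts were 8 and 8 at day 3, 18 and 13 at day 7, and 17 and 13 at day 21.

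The fit of the YAP5SA libraries uses the spread between the libraries of a day, with a biological coefficient of variation of 0.0548, against 0.399 in the fit of Non-NE and NE libraries. In a fit of all 14 libraries, which share one estimate of the spread, the counts were 3 higher and 0 lower at day 3, 7 and 1 at day 7, and 9 and 3 at day 21. The number of lower members at day 3 was 6 without day 0 replicate 2 and 5 without day 3 replicate 2, and at day 7 against day 3 it was 6 without day 7 replicate 1. The number of higher members at day 3 was 6 without day 3 replicate 2. Scaling by library totals gave 16 higher and 14 lower members at day 7 and 13 and 11 at day 7 against day 3, while the share of higher genes among all calls went to 40.4% from 52.4% and to 38.2% from 53%.

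Every tested member was called on at least 1 of days 3, 7 and 21 against day 0. At day 21 alone 37.7% of all genes tested were higher and 34% lower. The patterns over days given here were counted for members only, so whether they are particular to the transporters was not tested. Slc1a1, Slc3a2, Slc6a8, Slc6a14, Slc6a19, Slc7a3 and Slc7a6 were higher on all 3 days (7 members). Of these, the day 3 call of Slc3a2 was lost without day 0 replicate 1 (adjusted p = 0.0557), day 0 replicate 2 (0.054) or day 3 replicate 2 (0.0523), and that of Slc7a6 without day 3 replicate 2 (0.0854). Slc6a5, Slc6a6, Slc7a2, Slc38a5, Slc38a11, Slc43a1 and Slc43a2 were lower on all 3 (7 members). Of these, the day 3 call of Slc6a6 was lost without day 0 replicate 1 (adjusted p = 0.0589), day 0 replicate 2 (0.142) or day 3 replicate 2 (0.1), and that of Slc43a2 without day 0 replicate 2 (0.19) or day 3 replicate 2 (0.13). The day 7 call of Slc7a2 was lost in DESeq2's test (adjusted p = 0.102) and without day 0 replicate 2 (0.073) or day 7 replicate 2 (0.0674). Slc1a4, Slc1a5, Slc7a14 and Slc38a3 were called in opposite directions on different days (4 members). Of these, Slc38a3 alone kept its calls of day 3 and day 21 with library totals, in DESeq2's test and when any 1 library of the course was left out. Of the 18 members higher at day 21, 7 had at most 3 counts over both day 0 libraries, and of all members called then, 15 changed by less than 2-fold.

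**Figure D2:**
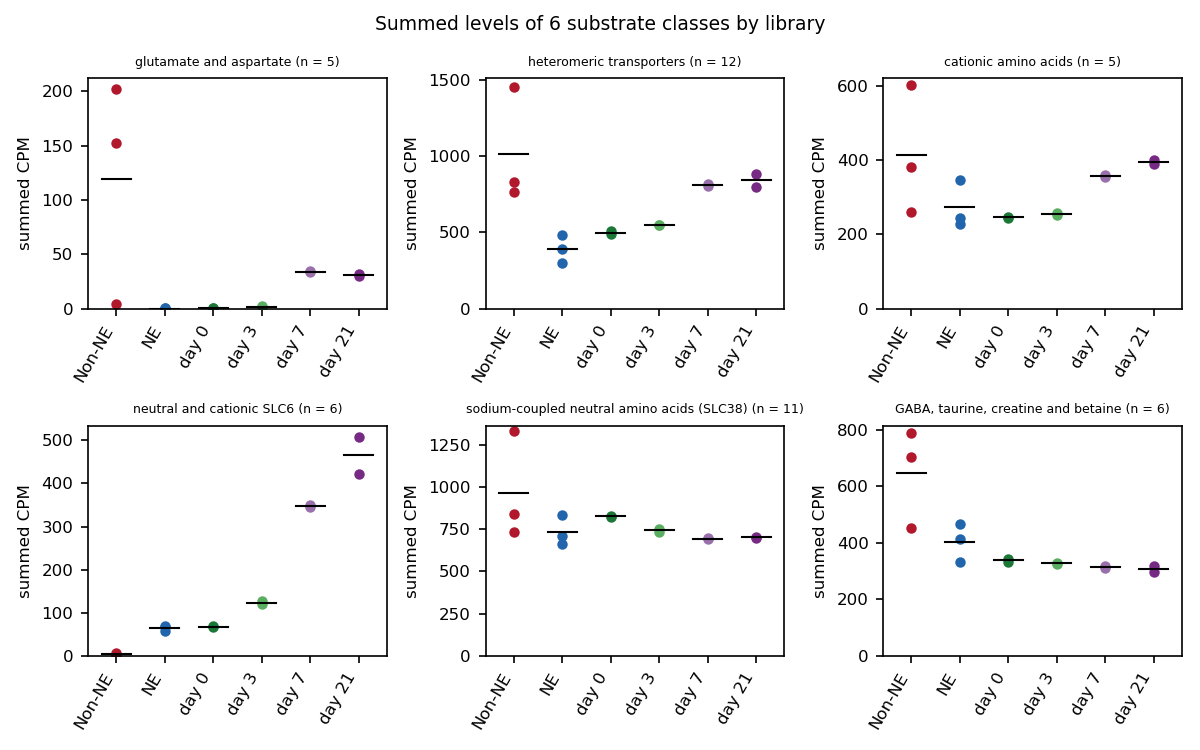
Summed CPM of the members of 6 substrate classes in each library (points) with the group mean (horizontal lines). The sum of the neutral and cationic SLC6 carriers averages 465 CPM at day 21 and 67.9 CPM at day 0, and that of the heteromeric transporters 841 CPM at day 21 and 499.5 CPM at day 0.

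Carriers of glutamate and aspartate were at or near 0 in NE cells and at day 0, while Non-NE cells held Slc1a3 and days 7 and 21 held Slc1a1. Slc1a1 (EAAT3, which takes up glutamate, aspartate and cysteine; chromosome 19, 28835049 to 28913960, plus strand, mm10) had 0 counts in every Non-NE and NE library. Under YAP5SA it stood at 0 and 0 CPM at day 0, 1.17 and 2.02 CPM at day 3, 34.0 and 32.6 CPM at day 7, and 30.6 and 29.1 CPM at day 21. Both libraries of days 7 and 21 lay far above those of day 3. Its level at day 21 was at least 213-fold that of day 0 (adjusted p = 2.82e-17), and the difference between days 21 and 7 did not pass the test (adjusted p = 0.302). Slc1a1 shares 2631 exonic bases with 4430402I18Rik on the other strand, and the labels do not say whether the counting used strand.

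Slc1a3 (EAAT1, known from glia; chromosome 15, 8634124 to 8710764, minus strand) was the form found in Non-NE cells, at 199.8, 2.69 and 148 CPM, with 0 counts in NE. The ratio was at least 1070-fold (adjusted p = 0.0184), with Non-NE replicate 2 far below the other libraries of its group. The adjusted p was 0.0568 with no filter on low counts. At days 7 and 21 it stood at 0.305 and 0.610 and at 0.476 and 0.194 CPM and was not tested. Slc1a2 (EAAT2) averaged 1.89 CPM in Non-NE and 0 in NE, and Slc1a6 and Slc1a7 stayed under 1 CPM in every group.

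Slc1a4 and Slc1a5 exchange small neutral amino acids. Slc1a4 (ASCT1, which carries alanine, serine and cysteine; chromosome 11, 20302180 to 20332713, minus strand), one of the members shown above with a C/EBP-ATF response element, had 149, 101 and 153 CPM in Non-NE, against 74.2, 82.5 and 52.5 CPM in NE. The groups did not overlap, and Non-NE was 1.87-fold higher (log2 0.90, SE 0.257, adjusted p = 0.0279). That call was lost with library totals (adjusted p = 0.0858) and when NE replicate 1 (0.0686), NE replicate 3 (0.0699), Non-NE replicate 1 (0.0637) or Non-NE replicate 3 (0.0801) was left out. Over the days of YAP5SA its levels were 83.05 and 80.8 CPM at day 0, 72.8 and 69.9 CPM at day 3, 82.7 and 85.0 CPM at day 7, and 90.1 and 100.2 CPM at day 21. Its call as lower at day 3 (adjusted p = 0.0328) was lost with no filter on low counts (0.0558), in DESeq2's test (0.0879) and when any of the day 0, 3 or 7 libraries was left out (0.0523 to 0.176). It was 1.18-fold higher at day 21 (adjusted p = 0.00928). The day 21 call was lost with library totals (0.296) and without day 0 replicate 2 (0.08) or day 21 replicate 2 (0.093).

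Slc1a5 (ASCT2, a main route of glutamine into tumour cells; chromosome 7, 16781340 to 16798274, plus strand) had 117, 45.5 and 33.6 CPM in Non-NE and 312, 192 and 53.5 CPM in NE. These overlapped, and the difference did not pass the test (log2 -1.56, SE 0.707, adjusted p = 0.118). The value was -1.97 without NE replicate 3 (adjusted p = 0.0448), -0.93 without NE replicate 1 (0.367) and -2.25 without Non-NE replicate 1 (0.0581). It was -1.43 and called with the replicate numbers fitted as a block (0.0235). In the YAP5SA libraries it had 192 and 178 CPM at day 0, 209 and 219 CPM at day 3, 121 and 119.5 CPM at day 7, and 123 and 143 CPM at day 21. Its call as higher at day 3 (adjusted p = 0.0329) was lost with library totals (0.132), in DESeq2's test (0.076) and without day 0 replicate 1 (0.0533), day 0 replicate 2 (0.273), day 3 replicate 2 (0.151), day 7 replicate 1 (0.0523) or day 7 replicate 2 (0.0513). It was 1.52-fold lower at day 7 (adjusted p = 1.95e-07) and 1.37-fold lower at day 21 (adjusted p = 1.37e-05), both against day 0.

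The heteromeric transporters join the heavy chain Slc3a2 (CD98hc, which brings the light chains to the plasma membrane) with a light chain of SLC7. Of 12 members 5 were tested, of which 3 were higher in Non-NE and all 5 were higher at days 7 and 21 against day 0, beside 20% of all genes tested in Non-NE, 37.2% at day 7 and 37.7% at day 21. Slc3a2 (chromosome 19, 8706882 to 8723369, minus strand) had 476, 343 and 355 CPM in Non-NE, against 132, 189.5 and 86.0 CPM in NE. The groups did not overlap, and Non-NE was 2.79-fold higher (log2 1.48, SE 0.316, adjusted p = 0.00922). Along the YAP5SA course it measured 193 and 193 CPM at day 0, 228 and 242 CPM at day 3, 328 and 317 CPM at day 7, and 372 and 447 CPM at day 21. Each day lay above the one before, and day 21 was 2.15-fold above day 0 (log2 1.11, SE 0.0805, adjusted p = 5.02e-12).

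Slc7a5 (LAT1, which exchanges leucine and other large neutral amino acids; chromosome 8, 121881150 to 121907694, minus strand) had 761.9, 314 and 349 CPM in Non-NE, against 155, 190.4 and 104 CPM in NE. Non-NE was 3.06-fold higher without overlap (log2 1.61, SE 0.404, adjusted p = 0.0174). It was not called without NE replicate 1 (adjusted p = 0.0601) or 3 (0.0584). The YAP5SA libraries held it at 191 and 214 CPM at day 0, 205 and 179 CPM at day 3, 329 and 329 CPM at day 7, and 290.1 and 301 CPM at day 21. The difference at day 3 did not pass the test (adjusted p = 0.376), and it was 1.64-fold higher at day 7 (adjusted p = 1.29e-08) and 1.48-fold higher at day 21 (adjusted p = 6.08e-07).

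From day 7 to day 21 the heavy chain was higher again (adjusted p = 0.00064), while the difference of Slc7a5 did not pass the test (log2 -0.15, adjusted p = 0.119). Genes were compared per kb of exon, with a fixed annotated length per gene, such as 17236 bases for Slc38a1. The transcripts expressed were not determined, so ratios, shares and ranks between genes depend on these lengths. On that scale the ratio of Slc7a5 to Slc3a2 was 1.52, 0.873 and 0.936 in Non-NE libraries and 1.12, 0.956 and 1.15 in NE libraries. It was 0.943 and 1.06 at day 0, 0.855 and 0.706 at day 3, 0.954 and 0.99 at day 7, and 0.742 and 0.641 at day 21. The summed light chains over Slc3a2 gave 0.998 and 0.858 at day 21, lower than in any of the other 12 libraries. Slc7a5 made up 77.9% to 84.2% of the summed light chains per kb in Non-NE libraries and 54.8% to 71.2% in NE libraries, without overlap, and 64.3% to 74.7% over the days.

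**Figure D3:**
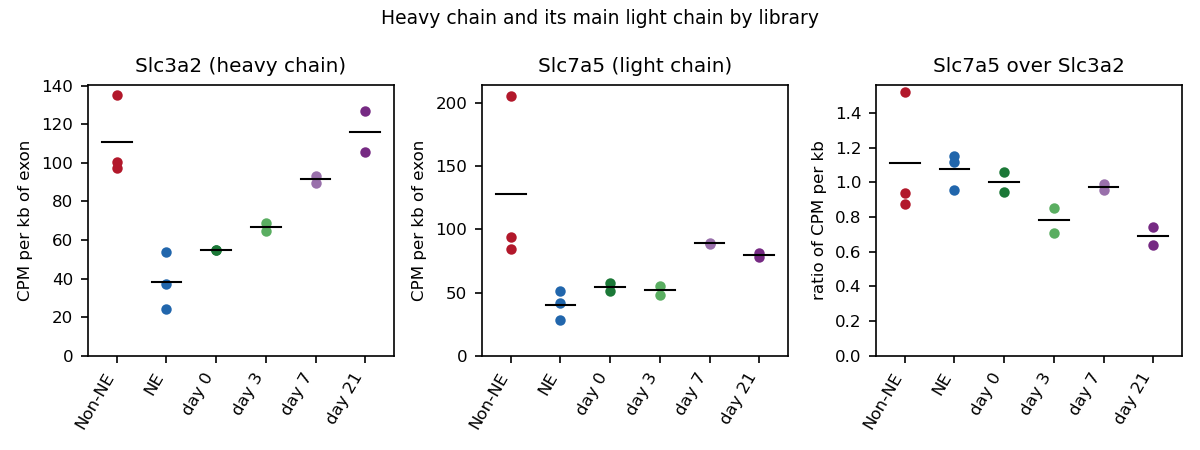
Level of Slc3a2 and Slc7a5 per kb of exon (CPM per kb) and the ratio of Slc7a5 to Slc3a2 in each library (points), with the group mean (horizontal lines). Slc3a2 averages 116 CPM per kb at day 21 and 54.7 at day 0, and the ratio averages 0.692 at day 21 and 1.0 at day 0.

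Slc7a6 (y+LAT2, which exchanges arginine for neutral amino acids; chromosome 8, 106168857 to 106198706, plus strand) had 153, 97.4 and 114 CPM in Non-NE and 91.1, 89.9 and 102 CPM in NE, which overlapped (adjusted p = 0.256). Under YAP5SA it stood at 89.9 and 88.9 CPM at day 0, 103 and 118 CPM at day 3, 135 and 131 CPM at day 7, and 114 and 117 CPM at day 21, highest at day 7 and 1.31-fold above day 0 at day 21 (adjusted p = 9.97e-05). Slc7a11 (xCT, which imports cystine for glutathione in exchange for glutamate; chromosome 3, 49892526 to 50443614, minus strand) had 59.5, 10.6 and 9.13 CPM in Non-NE, with replicate 1 alone high, and 14.2, 14.3 and 10.9 CPM in NE (adjusted p = 0.334). Its window above holds a pair of C/EBP-ATF response elements.

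Under YAP5SA Slc7a11 stood at 14.2 and 13.1 CPM at day 0, 14.1 and 10.4 CPM at day 3, 22.3 and 26.6 CPM at day 7, and 19.1 and 17.7 CPM at day 21. It was highest at day 7, 1.81-fold above day 0 (adjusted p = 8.61e-06). At day 21 it was 1.37-fold above day 0 (adjusted p = 0.00817). This call was lost with library totals (adjusted p = 0.0678) and without day 0 replicate 2 (0.0747). Slc7a7 (y+LAT1, a light chain like Slc7a6) was low, at 2.98 CPM on average in Non-NE and 0.208 CPM in NE (13.1-fold, adjusted p = 0.00114), and 2.25 CPM at day 21 and 0.14 CPM at day 0 (16.2-fold with a 95% counting interval of 5.2 to 81.2).

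The 3 members shown with a C/EBP-ATF response element were each called higher at day 21, as were 37.7% of all genes tested, and the calls of Slc1a4 and Slc7a11 were lost under the alternatives given above.

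Of the 5 cationic carriers and their relatives 1 was higher and 2 lower in Non-NE, and 2 were higher and 2 lower at day 21. Over all genes tested the shares were 20% higher and 22.8% lower in Non-NE, and 37.7% and 34% at day 21. Slc7a1 (CAT1, the broadly expressed carrier of arginine and lysine; chromosome 5, 148327410 to 148399904, minus strand) had 327, 210.5 and 182 CPM in Non-NE and 151, 126 and 153 CPM in NE. The groups did not overlap, but the difference did not pass the test (log2 0.69, SE 0.247, adjusted p = 0.0593; 0.0418 without Non-NE replicate 3). Over the days of YAP5SA its levels were 125 and 129 CPM at day 0, 134 and 124 CPM at day 3, 185 and 193 CPM at day 7, and 275 and 286 CPM at day 21. The level at day 21 was 2.24-fold above day 0 (log2 1.16, SE 0.0729, adjusted p = 2.45e-13).

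Slc7a2 (CAT2, known for supplying arginine to nitric oxide synthase and arginase; chromosome 8, 40862396 to 40922308, plus strand) had 273, 45.3 and 199 CPM in Non-NE, against 1.06, 2.41 and 6.71 CPM in NE. Every Non-NE library lay above every NE library, by 49.2-fold in the fit (log2 5.62, SE 0.938, adjusted p = 0.00354; log2 6.62 without NE replicate 3). Under YAP5SA it was low and went lower, at 2.34 and 3.05 CPM at day 0, 0.583 and 1.29 CPM at day 3, 1.32 and 1.02 CPM at day 7, and 1.05 and 1.36 CPM at day 21. The fall at day 21 (log2 -1.14, SE 0.361, adjusted p = 0.00686) did not pass in DESeq2's test (adjusted p = 0.116), nor without day 0 replicate 2 (0.0813) or day 21 replicate 1 (0.0583). Slc7a2 shares 635 exonic bases with Gm26584 on the other strand.

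Slc7a3 (CAT3, known from neurons; chromosome X, 101079210 to 101086020, minus strand) had 1.49, 1.95 and 1.80 CPM in Non-NE, against 16.6, 47.1 and 41.4 CPM in NE, 20.4-fold lower in Non-NE without overlap (log2 -4.35, SE 0.493, adjusted p = 0.000713). Under YAP5SA it did not go down but stood at 47.7 and 48.2 CPM at day 0, 59.1 and 68.4 CPM at day 3, 76.0 and 75.8 CPM at day 7, and 73.1 and 65.7 CPM at day 21. Day 21 was 1.47-fold above day 0 (adjusted p = 7.77e-06).

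Slc7a14 (a relative of the cationic carriers found on lysosomes; chromosome 3, 31202858 to 31310378, minus strand) had 0, 0.122 and 0.106 CPM in Non-NE, against 52.6, 61.5 and 129 CPM in NE, lower in Non-NE by 950-fold with a 95% counting interval of 263 to 7850 (adjusted p = 0.000108). In the YAP5SA libraries it had 61.7 and 58.5 CPM at day 0, 53.5 and 51.1 CPM at day 3, 71.9 and 72.7 CPM at day 7, and 32.4 and 36.4 CPM at day 21. It was 1.21-fold higher at day 7 (adjusted p = 0.00578), a call lost with library totals (adjusted p = 0.438) and without day 0 replicate 2 (0.0729), and 1.72-fold lower at day 21 (adjusted p = 4.01e-08). Slc7a4, another relative (chromosome 16, 17572018 to 17583214, minus strand), had 0, 3.79 and 0.106 CPM in Non-NE and 7.63, 7.76 and 16.2 CPM in NE, apart but not called (adjusted p = 0.107; 0.0441 in DESeq2's test and 0.00408 without Non-NE replicate 2). It stood at 7.22 and 8.88 CPM at day 0, 9.81 and 7.54 CPM at day 3, 21.9 and 18.3 CPM at day 7, and 9.91 and 10.3 CPM at day 21, 2.51-fold above day 0 at day 7 (adjusted p = 6.41e-08), and its difference at day 21 did not pass the test (adjusted p = 0.0848). It shares 554 exonic bases with P2rx6 on the other strand.

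Of the carriers of GABA, taurine, creatine and betaine, Slc6a8, Slc6a12 and Slc6a13 were higher at day 21 and the taurine carrier Slc6a6 was lower. Slc6a6 and Slc6a8 were tested between Non-NE and NE and neither was called, and Slc6a11 stayed under 1 CPM in every group. Slc6a13 (GAT2, a carrier of GABA and taurine known from liver and kidney; chromosome 6, 121300227 to 121337733, plus strand) had 0, 0 and 0.955 CPM in Non-NE and 0.193, 0.219 and 0.320 CPM in NE and was not tested there. The YAP5SA libraries held it at 0.375 and 0 CPM at day 0, 0.680 and 0.643 CPM at day 3, 7.52 and 7.72 CPM at day 7, and 7.91 and 8.14 CPM at day 21. Day 21 was 41.1-fold above day 0 (log2 5.36, SE 0.417, adjusted p = 1.8e-11), with all day 0 counts in replicate 1 and a log2 change of 4.39 without replicate 2. Its window with a TEAD motif is shown above. Slc6a12 (BGT1, betaine and GABA), 5.34 kb away, averaged 2.02 CPM at day 21 and 0.0469 CPM at day 0, above by 43.3-fold with a 95% counting interval of 7.36 to 1750 (adjusted p = 1.99e-06).

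Slc6a8 (the creatine carrier; chromosome X, 73673150 to 73682502, plus strand) had 65.3, 157 and 149 CPM in Non-NE, with replicate 1 low, and 84.8, 77.5 and 85.8 CPM in NE, which overlapped (adjusted p = 0.235; 0.00888 without Non-NE replicate 1). Under YAP5SA it stood at 76.0 and 76.7 CPM at day 0, 96.6 and 101 CPM at day 3, 115 and 115 CPM at day 7, and 116 and 142 CPM at day 21. The level at day 21 was 1.71-fold above day 0 (adjusted p = 9.42e-09). Slc6a6 (the taurine carrier; chromosome 6, 91684053 to 91759066, plus strand) had 385, 546 and 639 CPM in Non-NE and 326, 253 and 378 CPM in NE, apart but not called (log2 0.67, SE 0.261, adjusted p = 0.0759; adjusted p = 0.029 without Non-NE replicate 1). Over the days of YAP5SA its levels were 257 and 266 CPM at day 0, 232 and 223 CPM at day 3, 184 and 191 CPM at day 7, and 161 and 155 CPM at day 21. Each day lay below the one before, and day 21 was 1.63-fold below day 0 (log2 -0.70, SE 0.0718, adjusted p = 3.06e-09).

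Both tested glycine carriers were lower at days 7 and 21. Slc6a5 (GlyT2, which supplies glycine to inhibitory nerve endings; chromosome 7, 49910146 to 49963856, plus strand) had 0 counts in Non-NE, against 15.1, 11.3 and 0.532 CPM in NE, at least 72.1-fold lower in Non-NE but not tested, with NE replicate 3 far below the other NE libraries. In the YAP5SA libraries it had 10.6 and 11.7 CPM at day 0, 4.37 and 3.12 CPM at day 3, 1.42 and 2.13 CPM at day 7, and 0.762 and 1.45 CPM at day 21. Day 21 was 9.83-fold below day 0 (log2 -3.30, SE 0.274, adjusted p = 6.44e-11). Slc6a9 (GlyT1, which clears glycine; chromosome 4, 117834506 to 117875198, plus strand) had 76.0, 13.4 and 27.5 CPM in Non-NE and 48.6, 53.4 and 45.0 CPM in NE, which overlapped (adjusted p = 0.618; 0.0374 without Non-NE replicate 1).

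Under YAP5SA Slc6a9 stood at 52.1 and 47.3 CPM at day 0, 46.0 and 45.6 CPM at day 3, 30.6 and 29.9 CPM at day 7, and 37.4 and 45.8 CPM at day 21. It was lowest at day 7, 1.63-fold below day 0 (adjusted p = 1.69e-06). Its call at day 21 (adjusted p = 0.0393) was lost in 6 settings, among them DESeq2's test (adjusted p = 0.164) and without day 0 replicate 1 (0.264) or day 21 replicate 1 (0.383). Slc6a9 shares 1429 exonic bases with Ccdc24 on the other strand. Slc6a7 (the proline carrier) averaged 1.49 CPM in Non-NE and 0 CPM in NE and was not tested.

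Among the SLC6 carriers of neutral and cationic amino acids, Slc6a14 (ATB0,+, which takes up neutral and cationic amino acids together; chromosome X, 21714896 to 21742355, plus strand) had 0 counts in every Non-NE library and 0.193, 0.219 and 0.106 CPM in NE. Along the YAP5SA course it measured 0.188 and 0 CPM at day 0, 52.4 and 55.7 CPM at day 3, 293 and 289 CPM at day 7, and 474 and 384.5 CPM at day 21. Each day lay above the one before, also day 21 above day 7 (log2 0.57, adjusted p = 6.14e-06). Against day 0 it was higher at day 3 by 581-fold with a 95% counting interval of 160 to 4800, at day 7 by 3120-fold with a 95% counting interval of 864 to 25800 and at day 21 by 4610-fold with a 95% counting interval of 1280 to 38100 (adjusted p = 6.12e-24). All day 0 counts lay in replicate 1, and the fitted log2 change at day 21 was 12.02 with both day 0 libraries, 11.09 without replicate 2 and 15.13 without replicate 1.

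Slc6a17 (NTT4, which loads neutral amino acids into synaptic vesicles; chromosome 3, 107467543 to 107518018, minus strand) had 0, 7.08 and 0.318 CPM in Non-NE, against 62.7, 65.5 and 57.4 CPM in NE, 25.3-fold lower in Non-NE (log2 -4.66, SE 1.26, adjusted p = 0.0233). The call was lost with no filter on low counts (adjusted p = 0.0558) and without NE replicate 1 (0.0574), NE replicate 2 (0.055) or Non-NE replicate 3 (0.0543). Without Non-NE replicate 2, the only one of its group above 1 CPM, the log2 difference was -8.28. The YAP5SA libraries held it at 65.9 and 69.3 CPM at day 0, 72.1 and 62.5 CPM at day 3, 54.5 and 53.2 CPM at day 7, and 34.4 and 36.2 CPM at day 21. The level at day 21 was 1.89-fold below day 0 (adjusted p = 3.57e-09).

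Slc6a19 (B0AT1, known from gut and kidney) was low, at 0, 1.84, 2.74 and 0.241 CPM on average at days 0, 3, 7 and 21. It was higher on each of the later days than at day 0, where it had 0 counts, and lower at day 21 than at day 7 (log2 -3.44, adjusted p = 3.54e-06). Slc6a15 averaged 2.06 CPM in NE, where 1 library reached 6.08 CPM, and Slc6a16 and Slc6a18 stayed under 1 CPM in every group.

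**Figure D4:**
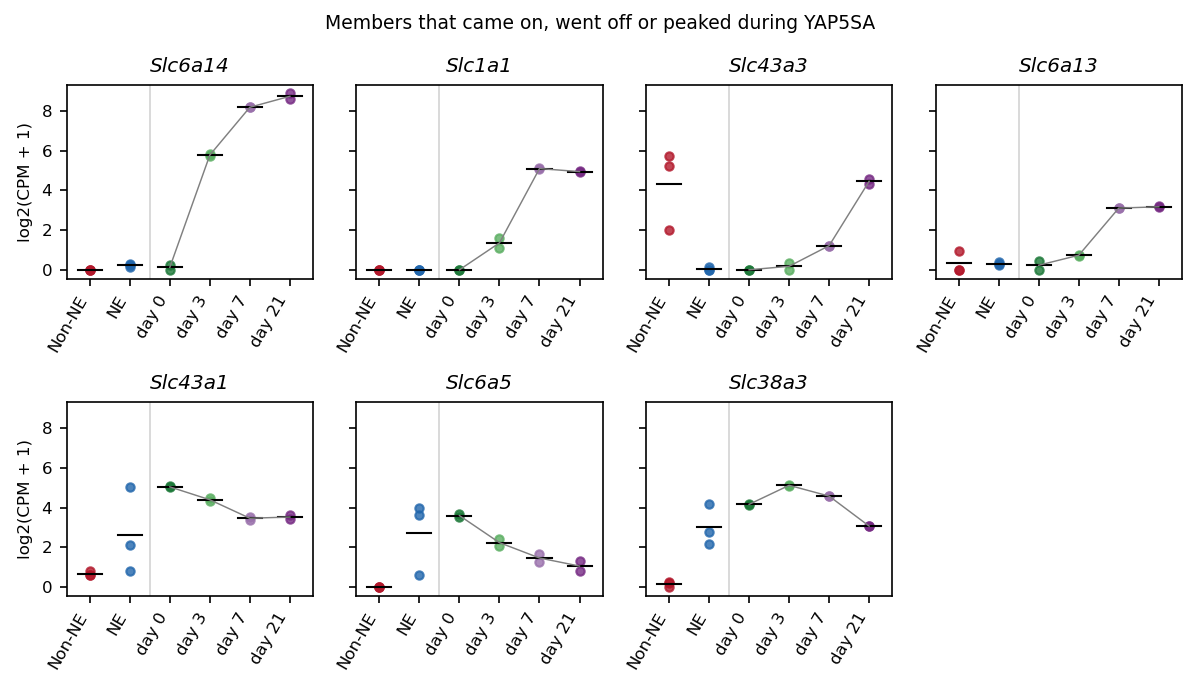
Level of 7 members in each library (points) as log2(CPM + 1), with group means. Slc6a14, Slc1a1, Slc43a3 and Slc6a13 are at or near 0 at day 0 and higher at day 21, Slc43a1 and Slc6a5 are lower at day 21, and Slc38a3 is highest at day 3, with 34.5 and 33.3 CPM.

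Of the sodium-coupled SLC38 carriers 2 of 9 tested were higher and 5 lower at day 21 against day 0, beside 37.7% and 34% of all genes tested. In Non-NE 1 of 8 was higher and 2 lower, beside 20% and 22.8%. Slc38a2 (SNAT2, known to be induced when amino acids are short; chromosome 15, 96687392 to 96699730, minus strand) had 778, 376 and 363 CPM in Non-NE and 245, 296 and 239.9 CPM in NE, apart but not called (log2 0.91, SE 0.324, adjusted p = 0.06; 0.0426 in DESeq2's test and 0.0499 without Non-NE replicate 3). Under YAP5SA it stood at 297 and 284 CPM at day 0, 282 and 281 CPM at day 3, 225 and 241 CPM at day 7, and 188 and 187 CPM at day 21. Day 21 was 1.52-fold below day 0 (adjusted p = 4.17e-08). Its neighbour Slc38a1 (SNAT1, a glutamine carrier; chromosome 15, 96571418 to 96642913, minus strand), 44.5 kb away, had 284, 149 and 70.9 CPM in Non-NE and 239, 289 and 215 CPM in NE, which overlapped (adjusted p = 0.321; 0.0429 without Non-NE replicate 1).

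Under YAP5SA Slc38a1 stood at 286 and 287 CPM at day 0, 228 and 219.8 CPM at day 3, 232 and 229.5 CPM at day 7, and 290.4 and 288 CPM at day 21. It was lower at days 3 (adjusted p = 9.61e-05) and 7 (adjusted p = 0.000475), and its difference at day 21 did not pass the test (adjusted p = 0.669). Slc38a3 (SNAT3, a glutamine carrier of liver, kidney and brain; chromosome 9, 107650634 to 107669530, minus strand) had 0.165, 0 and 0.212 CPM in Non-NE, against 3.48, 16.9 and 5.75 CPM in NE, lower in Non-NE by 66.9-fold with a 95% counting interval of 22.6 to 327 (adjusted p = 0.00398). The fitted log2 difference was -6.00, and it was -5.05 without NE replicate 2 and -6.69 without Non-NE replicate 3. Over the days of YAP5SA its levels were 17.2 and 16.7 CPM at day 0, 34.5 and 33.3 CPM at day 3, 23.0 and 22.9 CPM at day 7, and 7.43 and 7.36 CPM at day 21. It was 1.98-fold higher at day 3 (adjusted p = 4.94e-08) and 2.26-fold lower at day 21 (adjusted p = 5.77e-08).

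Slc38a5 averaged 0.0708 CPM in Non-NE and 2.56 CPM in NE, lower in Non-NE by 29.9-fold with a 95% counting interval of 7.98 to 251 (adjusted p = 0.00612), and 0.863 CPM at day 21 and 3.63 CPM at day 0 (log2 -2.03, adjusted p = 2.69e-05). Slc38a11 averaged 3.21, 0.670, 0.0508 and 0.336 CPM at days 0, 3, 7 and 21, lower at day 21 than at day 0 (log2 -3.19, adjusted p = 1.36e-06). Both were thus low members that fell over the days.

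Slc38a7 and Slc38a9, both known from lysosomes, were called at day 21 alone among the days, and both were higher. Slc38a7 (SNAT7, which exports glutamine from lysosomes; chromosome 8, 95835920 to 95853539, minus strand) had 33.0, 36.4 and 30.8 CPM in Non-NE and 39.3, 31.1 and 24.1 CPM in NE (adjusted p = 0.909). In the YAP5SA libraries it had 30.2 and 32.0 CPM at day 0, 29.8 and 29.5 CPM at day 3, 33.8 and 30.7 CPM at day 7, and 38.8 and 43.4 CPM at day 21. The level at day 21 was 1.34-fold above day 0 (adjusted p = 6e-04). Slc38a9 (an arginine sensor that acts on mTORC1; chromosome 13, 112660751 to 112738749, plus strand) had 20.7, 20.3 and 24.3 CPM in Non-NE and 27.1, 18.4 and 28.9 CPM in NE (adjusted p = 0.517). Along the YAP5SA course it measured 18.6 and 18.1 CPM at day 0, 20.9 and 19.6 CPM at day 3, 18.5 and 18.9 CPM at day 7, and 30.1 and 26.4 CPM at day 21. Day 21 was 1.56-fold above day 0 (adjusted p = 2.59e-05).

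Slc38a10 (chromosome 11, 120103960 to 120151346, minus strand) had 197, 242 and 219.6 CPM in Non-NE, against 146, 159 and 124 CPM in NE, 1.49-fold higher (log2 0.58, SE 0.181, adjusted p = 0.0397). The call was lost with library totals (adjusted p = 0.184), with no filter (0.0547) and when NE replicate 1 (0.0878), NE replicate 3 (0.0929), Non-NE replicate 2 (0.117) or Non-NE replicate 3 (0.0865) was left out. The YAP5SA libraries held it at 158 and 162 CPM at day 0, 144 and 136 CPM at day 3, 150.3 and 145 CPM at day 7, and 127 and 142 CPM at day 21. It was lower at day 21 than at day 0 (log2 -0.23, adjusted p = 0.00796). The call of day 21 was lost without day 0 replicate 2 (0.0621) or day 21 replicate 1 (0.0632). Slc38a6 (chromosome 12, 73286779 to 73354049, plus strand) had 14.5, 12.7 and 21.6 CPM in Non-NE and 9.65, 13.1 and 19.7 CPM in NE (adjusted p = 0.761). It stood at 12.9 and 15.6 CPM at day 0, 10.3 and 10.5 CPM at day 3, 7.12 and 7.42 CPM at day 7, and 12.8 and 10.8 CPM at day 21, 1.95-fold below day 0 at day 7 (adjusted p = 1.29e-05), and its difference at day 21 did not pass the test (adjusted p = 0.134; 0.0211 with library totals).

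The SLC43 facilitators moved in opposite directions. Slc43a3 (known as a carrier of purine nucleobases; chromosome 2, 84936579 to 84958509, plus strand) had 52.7, 36.0 and 2.97 CPM in Non-NE, with replicate 3 low, against 0, 0 and 0.106 CPM in NE, higher in Non-NE by 784-fold with a 95% counting interval of 140 to 31000 (adjusted p = 0.0033). The fitted log2 difference was 9.23, and it was 11.04 without NE replicate 3, the only NE library with counts, and 8.63 without Non-NE replicate 1. Under YAP5SA it stood at 0 and 0 CPM at day 0, 0 and 0.276 CPM at day 3, 1.32 and 1.32 CPM at day 7, and 19.2 and 22.9 CPM at day 21, at least 151-fold above day 0 at day 21 (adjusted p = 3.5e-15). Most of its level appeared after day 7, since day 21 lay above day 7 by 3.99 on the log2 scale (adjusted p = 2.21e-12).

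Slc43a1 (LAT3, which carries branched-chain amino acids; chromosome 2, 84838850 to 84863594, plus strand), 73.0 kb from Slc43a3, had 0.496, 0.733 and 0.531 CPM in Non-NE and 3.28, 31.6 and 0.746 CPM in NE, with NE replicate 2 alone high, and was not tested there. Over the days of YAP5SA its levels were 31.6 and 32.5 CPM at day 0, 18.9 and 21.3 CPM at day 3, 10.7 and 9.45 CPM at day 7, and 11.4 and 9.69 CPM at day 21. The level at day 21 was 2.98-fold below day 0 (log2 -1.58, SE 0.13, adjusted p = 6.02e-11). Slc43a2 (LAT4, with similar substrates; chromosome 11, 75531694 to 75577575, plus strand) had 3.31, 15.1 and 22.7 CPM in Non-NE and 17.3, 25.3 and 16.0 CPM in NE, which overlapped (adjusted p = 0.529). It stood at 26.1 and 34.0 CPM at day 0, 23.8 and 18.6 CPM at day 3, 11.2 and 12.2 CPM at day 7, and 10.5 and 15.6 CPM at day 21. Day 21 was 2.27-fold below day 0 (adjusted p = 5.43e-07).

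The carriers of monoamines were hardly detected. Slc6a2 (noradrenaline) reached 6.26 CPM in 1 Non-NE library with 0 counts in NE, and Slc6a3 (dopamine) and Slc6a4 (serotonin) stayed under 1 CPM in every group. In all, 16 members stayed under 1 CPM in every group, among them also Slc3a1, Slc7a8, Slc7a9, Slc7a10, Slc7a13, Slc7a15, Slc38a4 and Slc38a8.

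Per kb of exon, Slc7a5 (128 ± 67.2) and Slc3a2 (111 ± 20.9) led in Non-NE and overlapped, followed by Slc6a6 (61.9 ± 15.2) and Slc38a2 (57.2 ± 26.7), which also overlapped each other (CPM per kb, SD, n = 3). In NE the first 5, Slc1a5, Slc7a5, Slc3a2, Slc6a6 and Slc38a2, stood between 44.5 and 29.5 CPM per kb, and each overlapped the next. At day 21 Slc6a14 (125 ± 18.4) and Slc3a2 (116 ± 14.9) led and overlapped, followed by Slc7a5 (79.7 ± 2.08) and Slc1a5 (31.9 ± 3.37) without overlap (CPM per kb, SD, n = 2). At day 0 Slc3a2 (54.7 ± 0.0471) and Slc7a5 (54.7 ± 4.43) led and overlapped, followed by Slc1a5 (44.3 ± 2.31) and Slc38a2 (32.8 ± 1.09). Slc6a14, near 0 at day 0, thus stood beside the CD98 heavy chain at day 21 on this scale. The order of genes depends on the annotated exon lengths, as stated above.

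**Figure D5:**
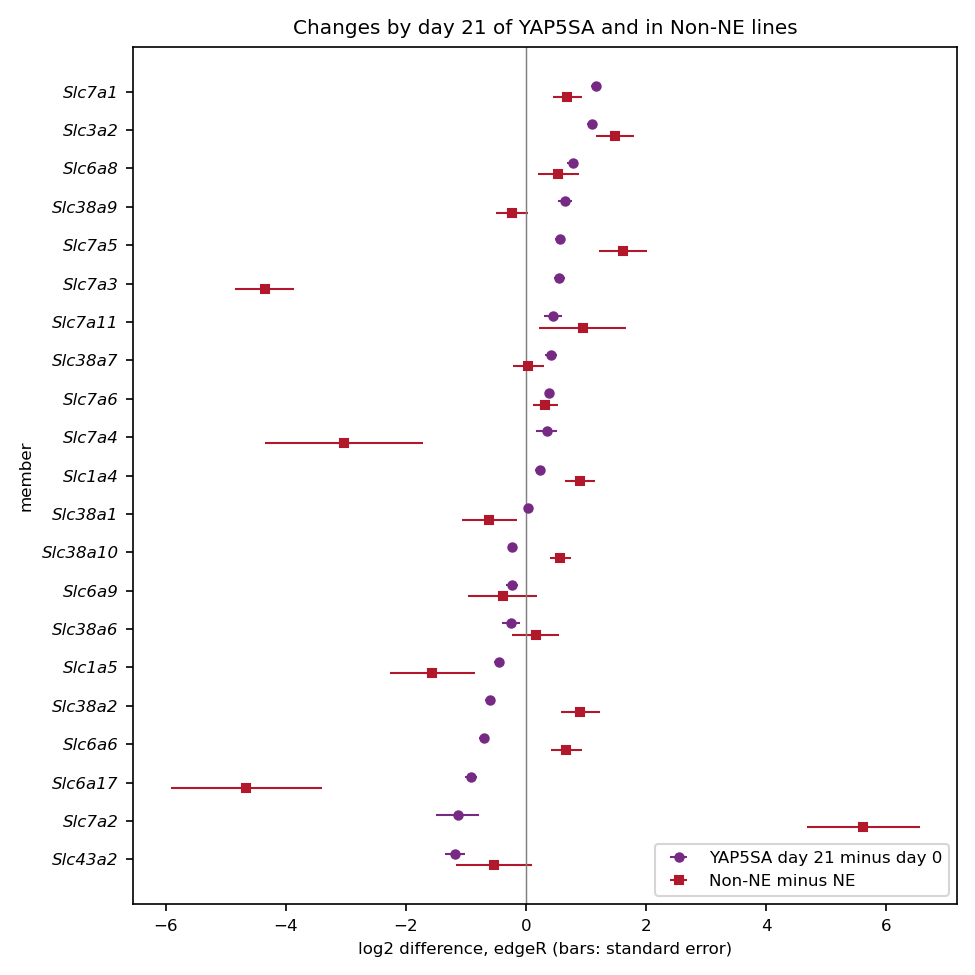
Log2 difference of day 21 against day 0 of YAP5SA and of Non-NE against NE, with standard errors from edgeR (bars), for 21 members. Slc3a2 lies above 0 and Slc6a17 below 0 in both, Slc7a3 is above 0 at day 21 and below 0 in Non-NE, and Slc7a2 is below 0 at day 21 and above 0 in Non-NE.

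Day 0 and NE share reads, so whether the day 21 change differed from the Non-NE difference was tested in a fit of 13 libraries without NE replicate 2. These libraries share one estimate of the spread, with a biological coefficient of variation of 0.266. In the separate fits it was 0.0548 for YAP5SA and 0.399 for Non-NE and NE libraries. The p-values can thus be too small for the Non-NE side. Pooling all 14 libraries likewise gave 13 higher and 11 lower members in Non-NE, against 8 and 5. The value tested is the day 21 change minus the Non-NE change. Of 38 tested members 6 were higher and 5 lower, beside 21.2% and 11.6% of all genes. The number of lower members was 8 without Non-NE replicate 2 and 3 without day 21 replicate 2. Library totals moved the median of all genes to 0.298 from 0.122, the share of higher genes among all calls to 75% from 64.7%, and the counts to 7 and 4.

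Slc7a14, Slc7a3, Slc38a3 and Slc6a17, all lower in Non-NE, had a smaller fall or a rise at day 21. The value was 9.07 for Slc7a14 (SE 0.691, adjusted p = 7.09e-06), whose Non-NE libraries held few counts, and 4.56 for Slc7a3 (SE 0.481, adjusted p = 7.28e-05). Without NE replicate 3 these values were 8.28 and 3.76. It was 3.86 for Slc38a3 (SE 0.619, adjusted p = 0.00115; 4.58 without Non-NE replicate 3). For the vesicular carrier Slc6a17 it was 3.62 (SE 1.17, adjusted p = 0.0387), lost in DESeq2's test (0.114) and with no filter (0.0866). It was also lost without NE replicate 1 or 3 or any 1 of the 8 YAP5SA libraries (0.0588 to 0.133), and was 7.25 without Non-NE replicate 2. Slc38a9 gave 0.98 (SE 0.218, adjusted p = 0.00693), and Slc6a14 was called too (adjusted p = 0.00032), although its fitted size depends on the prior count because Non-NE had 0 counts.

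In the other direction the value was -6.64 for Slc7a2 (SE 1.33, adjusted p = 0.00406), higher in Non-NE and lower at day 21, with -5.84 without NE replicate 1 and -8.48 without NE replicate 3. It was -1.30 for Slc6a6 (SE 0.274, adjusted p = 0.00537), -0.96 for Slc38a10 (SE 0.186, adjusted p = 0.00344) and -1.69 for Slc38a2 (SE 0.422, adjusted p = 0.0128; 0.0502 without day 21 replicate 2). For Slc1a4 it was -0.87 (SE 0.292, adjusted p = 0.0449), lost with library totals (0.11), with no filter (0.0578) and without NE replicate 3, Non-NE replicate 1 or 3, or any 1 of the 8 YAP5SA libraries (0.0538 to 0.144). For Slc3a2 (adjusted p = 0.0748) and Slc7a5 (adjusted p = 0.0686) it did not pass the test, which does not show that these changes were alike. It passed for Slc3a2 without NE replicate 1 (adjusted p = 0.0115) or Non-NE replicate 2 (0.0488), and for Slc7a5 in DESeq2's test (0.0357) and without any 1 of the Non-NE libraries (0.0234 to 0.039).

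Other genes of amino acid handling were counted in 9 lists. All list counts stand beside 20% higher and 22.8% lower of all genes tested in Non-NE (median log2 -0.0199), and 37.7% and 34% at day 21 (median 0.0232). Of the vesicular loaders and enzymes of inhibitory transmitters, 0 of 6 tested genes were higher and 4 lower in Non-NE (median log2 -5.09), and 0 of 7 tested genes were higher and 6 lower at day 21 (median -1.17). Gad1, which makes GABA, had 0 counts in Non-NE and averaged 16.7 CPM in NE, and it averaged 9.50 CPM at day 21 and 30.6 CPM at day 0 (log2 -1.66, SE 0.15, adjusted p = 3.06e-10). Slc17a6, which loads glutamate into vesicles, averaged 11.9 CPM at day 21 and 29.9 CPM at day 0 (log2 -1.31, SE 0.121, adjusted p = 4.94e-10). Gad1 was thus lower at day 21, when the GABA carrier Slc6a13 was higher.

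Of the other amino acid transporters, 0 of 11 tested genes were higher and 4 lower in Non-NE (median -0.17), and 4 of 12 tested genes were higher and 5 lower at day 21 (median -0.0693). Slc36a1, a lysosomal proton-coupled carrier, averaged 49.6 CPM in Non-NE and 166 CPM in NE (log2 -1.79, SE 0.26, adjusted p = 0.00195), and 65.2 CPM at day 21 and 189 CPM at day 0 (log2 -1.52, SE 0.0812, adjusted p = 9.92e-15).

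In serine, glycine and one-carbon metabolism 6 of 12 tested genes were higher and 0 lower in Non-NE (median 1.21), and 4 of 11 tested genes were higher and 5 lower at day 21 (median 0.0343). Phgdh, the first enzyme of serine synthesis, averaged 112 CPM in Non-NE and 16.5 CPM in NE (log2 2.71, SE 0.817, adjusted p = 0.0347). It averaged 94.7 CPM at day 21 and 14.2 CPM at day 0 (log2 2.75, SE 0.103, adjusted p = 5.9e-18).

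In glutamine, glutamate and aspartate metabolism 1 of 13 tested genes was higher and 3 lower in Non-NE (median -0.0149), and 9 of 13 tested genes were higher and 1 lower at day 21 (median 0.43). Gpt2, a mitochondrial alanine aminotransferase, averaged 122 CPM at day 21 and 35.5 CPM at day 0 (log2 1.81, SE 0.0843, adjusted p = 5.54e-16), and the glutaminase gene Gls2 averaged 22.2 CPM at day 21 and 44.2 CPM at day 0 (log2 -0.97, SE 0.122, adjusted p = 1.12e-07).

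Of the cystine and glutathione genes 4 of 8 tested genes were higher and 1 lower in Non-NE (median 0.86), and 5 of 9 tested genes were higher and 1 lower at day 21 (median 0.34). Chac1, which breaks down glutathione, averaged 114 CPM at day 21 and 24.6 CPM at day 0 (log2 2.23, SE 0.0914, adjusted p = 3.83e-17). Of the branched-chain genes 1 of 10 tested genes was higher and 2 lower in Non-NE (median 0.00226), and 5 of 9 tested genes were higher and 1 lower at day 21 (median 0.45), led by the aminotransferase Bcat2 at 49.0 CPM at day 21 and 16.0 CPM at day 0.

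Of the arginine, creatine and polyamine genes 4 of 12 tested genes were higher and 5 lower in Non-NE (median 0.59), and 6 of 12 tested genes were higher and 3 lower at day 21 (median 0.45). Ckmt1, a mitochondrial creatine kinase, averaged 0.244 CPM in Non-NE and 167 CPM in NE (log2 -9.33, SE 0.804, adjusted p = 0.000248), and Odc1, the first enzyme of polyamine synthesis, averaged 90.3 CPM at day 21 and 29.3 CPM at day 0 (log2 1.65, SE 0.0954, adjusted p = 4.78e-14).

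Of the amino acid sensing genes 3 of 22 tested genes were higher and 3 lower in Non-NE (median 0.0657), and 9 of 22 tested genes were higher and 3 lower at day 21 (median 0.17). On the higher side, the stress gene Ddit3 had 146 CPM at day 21 and 64.6 CPM at day 0, and Trib3 had 265 and 142 CPM. The 3 genes lower at day 21 are not named here. Of the partner proteins of transporters 2 of 5 tested genes were higher and 1 lower in Non-NE (median -0.37), and 3 of 5 tested genes were higher and 1 lower at day 21 (median 0.50). Cd44, a partner of the cystine carrier at the cell surface, averaged 405.5 CPM in Non-NE and 0.177 CPM in NE, and 32.5 CPM at day 21 and 0.141 CPM at day 0.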

How the data were processed

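The deposited table holds raw counts of reads per gene for 14 libraries, as the authors made it. STAR 2.4.2, featureCounts and mm10 are named in the submitters' processing notes, and the annotation and strand setting are not given in the sources used here. No other per-sample column was in the table (0). Library totals ran from 6730816 to 10659524 counts, and counting error alone is covered by the 95% exact intervals of ratios given where a group held 1 to 3 counts.

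Counts were scaled with TMM and tested with edgeR 4.0.16 in R 4.3.3 (glmQLFit with robust estimation, glmQLFTest, filterByExpr by group), with Benjamini-Hochberg adjustment over all genes tested and calls under 0.05. Non-NE and NE libraries (6) and YAP5SA libraries (8) were fitted apart, and the difference of the changes in 13 libraries without NE replicate 2. The scripts were tested on simulated data. CPM are counts scaled to library size by TMM factors over all 14 libraries, and levels per kb use GENCODE M21 exon lengths, whose coordinates are of mm10. A member with 5 CPM or more on average in any group is named with its values, except 1 that is not reported here, and up to 3 called genes of each other list with the largest change and at least 10 CPM. The members and lists were chosen with earlier results of these data known. Alternatives were DESeq2 size factors, library totals, no filter on low counts, the DESeq2 1.42.0 test, a replicate block, a fit of all 14 libraries and leaving out each library. A DESeq2 fit of all 14 libraries was added after seeing the data. Promoter windows are from RefSeq (GRCm38.p6). Protein sequences were not used here.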

Additional observations from a re-analysis of the deposited data

Results flagged for a closer look

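For 11 members the change at day 21 of YAP5SA differed from the Non-NE difference in a test of the difference itself, as the day 21 change minus the Non-NE change in log2 (edgeR, 13 libraries without NE replicate 2). That fit shares one estimate of the spread between groups of unequal spread, so its p-values can be too small for the Non-NE side. Upward, the value was 9.07 for Slc7a14, 4.56 for Slc7a3, 3.86 for Slc38a3, 3.62 for Slc6a17 and 0.98 for Slc38a9. For Slc6a14 it was 15.66, a size that depends on the prior count since Non-NE had 0 counts. Downward, it was -6.64 for Slc7a2, -1.69 for Slc38a2, -1.30 for Slc6a6, -0.96 for Slc38a10 and -0.87 for Slc1a4. Of these, Slc6a17 and Slc1a4 lost the call under several alternatives.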

How the results depend on the processing

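No named member changed direction while called with DESeq2 size factors, library totals, no filter on low counts, DESeq2's test or the replicate block. The same held in edgeR's fit of all 14 libraries and with any 1 library left out. The direction of the other members was not compared in this way, nor was that in the DESeq2 fit of all 14 libraries. DESeq2's test gave 12 higher and 9 lower members in Non-NE, against 8 and 5. A fit of all 14 libraries gave 13 higher and 11 lower in Non-NE, 3 and 0 at day 3, 7 and 1 at day 7, 9 and 3 at day 21, 2 and 0 at day 7 against day 3, and 0 and 0 at day 21 against day 7. At an unadjusted p under 0.05 that edgeR fit gave 4 higher and 1 lower at day 3, 7 and 1 at day 7 against day 3, and 5 and 3 at day 21 against day 7. DESeq2 on all 14 libraries, added after seeing the data, called 3 and 0, 4 and 0, and 1 and 0 in these comparisons. Leaving out each library gave 6 to 9 higher and 4 to 9 lower in Non-NE, 6 to 11 and 5 to 12 at day 3, 16 to 18 and 11 to 13 at day 7, and 15 to 18 and 11 to 14 at day 21. It gave 14 to 17 and 6 to 11 at day 7 against day 3, 10 to 14 and 7 to 9 at day 21 against day 7, and 5 to 8 and 3 to 8 for the difference of changes. Of 206 values of named members the call stayed in 204 with DESeq2 size factors, 199 with no filter on low counts, 188 with library totals, 187 in DESeq2's test and 101 in the fit of all 14 libraries. The replicate block kept 199 and gave 6 higher and 6 lower in Non-NE, 11 and 9 at day 21 against day 7, and 8 and 4 for the difference of changes. Over all genes tested, same-numbered libraries did not deviate together from their group means (correlations of -0.0604 to 0.0453). This does not settle whether the numbers pair the libraries, since a shared origin need not show over all genes. Differently numbered libraries of Non-NE and NE were not compared. With 2 libraries per day the deviations mirror each other, so each pair of days gives a single value. Differently numbered libraries of these days then give its negative. Beyond what is built into each alternative, the cause of these changes was not tested. Depth limits the members near 0, for which a group at 0 allows 3 counts.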
